A study of Homo sapiens with 13 samples.

Results

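The genes described here encode 28 proteins of the small subunit of the cytosolic ribosome (RPSA, FAU and 26 genes named RPS). They were taken from a fixed list of symbols, all 28 were found, and they stand among 19974 protein-coding genes on chromosomes 1 to 22 and X. The data are peaks of DNA-RNA immunoprecipitation sequencing (DRIP-seq) in U2OS, a human osteosarcoma cell line. Hybrids were pulled down with the S9.6 antibody from cells given a control siRNA (siCtrl, genotype labelled WT) or an siRNA that knocks down REXO4 (siREXO4) or RNaseH1 (siRNaseH1). There were 3 S9.6 libraries per transfection and the authors merged them into 1 peak list each, so no value has a replicate error and no test between transfections was possible. An input of each transfection and an IgG pull-down of siCtrl cells complete the 13 samples and have no list here. The extent of each knockdown and the number of reads were not measured in these lists.

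An R-loop forms when nascent RNA pairs with its DNA template and leaves the other DNA strand single. RNaseH1 degrades the RNA of such hybrids, and REXO4 belongs to a family of predicted exonucleases. Ribosomal protein genes are short, are among the most highly transcribed genes of growing cells, and their RNAs usually begin with a run of pyrimidines, the terminal oligopyrimidine tract that couples their translation to growth signals.

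A peak was counted for a gene when it overlapped the annotated gene span or the 2 kb on either side by at least 1 bp. In siCtrl cells, 15 of the 28 genes held a peak, against 12.0% of all protein-coding genes. In each knockdown list 25 of the 28 did, against 33.7% of protein-coding genes for siREXO4 and 39.2% for siRNaseH1. Among protein-coding genes of the members' range of length, 1394 to 27723 bp, these shares were 8.01%, 28.9% and 33.5%. The members were thus above both backgrounds in all 3 lists. A peak in every list was held by 15 of the 28 genes, against 8.59% of protein-coding genes and 6.36% of those of similar length. These were all 15 genes with a siCtrl peak, while of the 2393 protein-coding genes with a siCtrl peak 1715 held one in every list.

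The number of peaks separated the knockdown lists more than the number of genes did. The 28 genes held 19 of the 4458 siCtrl peaks, 37 of the 12687 siREXO4 peaks and 80 of the 20954 siRNaseH1 peaks. In the siRNaseH1 list 17 genes held 3 or more peaks, against 13.3% of protein-coding genes. For siREXO4 this was true of 4 genes (5.18% of protein-coding genes) and for siCtrl of 1 gene (0.746%). The median gene held 3 siRNaseH1 peaks and 1 peak in each of the other lists. Among genes of the members' length these backgrounds were 8.7%, 3.1% and 0.375%. When the longer lists were cut to the 4458 most significant peaks, the length of the siCtrl list, the 28 genes held 19, 23 and 41 peaks. The siRNaseH1 number stood above the others at equal list length too, but no equal-length background over all genes was computed. In the full lists the members held 0.426% of siCtrl, 0.292% of siREXO4 and 0.382% of siRNaseH1 peaks. All protein-coding genes with a listed start had the same order of numbers, with 2554, 9247 and 16626 pairs of gene and peak.

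**Figure D1:**
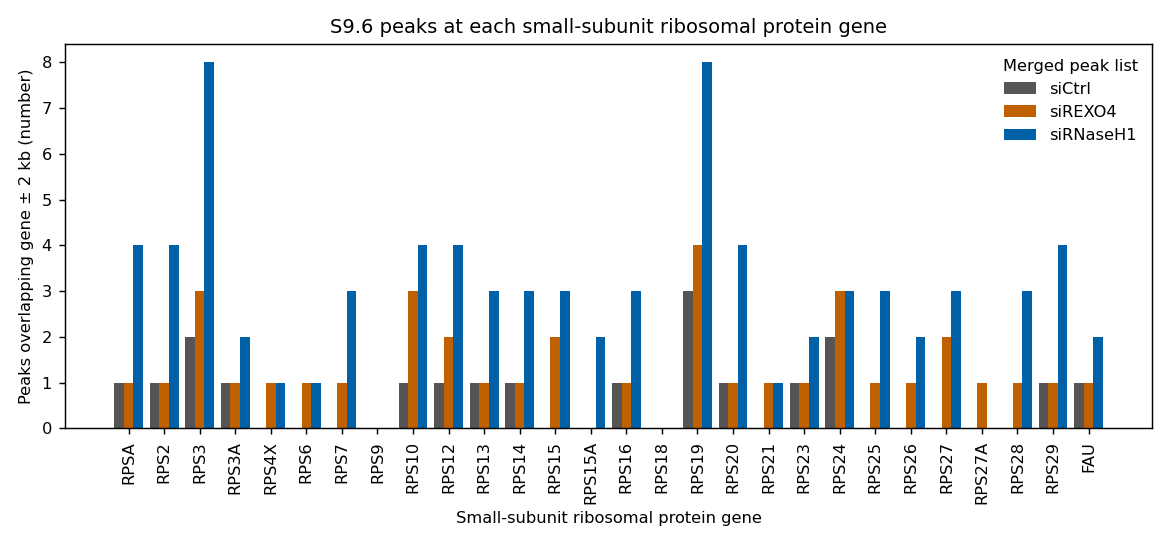
Number of peaks (y axis) at each of the 28 genes (x axis), with 1 bar for each merged peak list. RPS3 and RPS19 reach 8 siRNaseH1 peaks, while RPS9 and RPS18 have no bar in any list.

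A knockdown peak is called gained here when no siCtrl peak overlapped it by 1 bp. A siREXO4 gained peak was found at 15 of the 28 genes (31.3% of protein-coding genes), or at 9 in lists of equal length, and a siRNaseH1 gained peak at 25 (37.6%). At 13 genes a siREXO4 gained peak was overlapped by a siRNaseH1 gained peak, against 20.8% of protein-coding genes. Among those of the members' length the backgrounds were 26.3%, 31.8% and 19.3%. By peaks, 18 of 37 siREXO4 and 61 of 80 siRNaseH1 peaks at these genes were gained. These shares of 48.6% and 76.2% were below the 85.5% and 90.3% of the whole lists. When the 15 genes with a siCtrl peak anywhere in their window were left out, 10 of the remaining genes held a siREXO4 gained peak. A siRNaseH1 gained peak was held by 10 of them and a peak gained in both by 8. Shares of all protein-coding genes were not computed under this limit or in lists of equal length, so these counts have no background.

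All 19 siCtrl peaks at the 28 genes were overlapped by a peak of both knockdown lists. Of the whole siCtrl list 33.7% were, and of the siCtrl peaks at all protein-coding genes 38.8% (1094 of 2819). At large-subunit ribosomal protein genes 25 of 34 were (73.5%, 95% Wilson interval 56.9 to 85.4%). That interval overlapped slightly with the members' interval of 83.2 to 100%. Among siCtrl peaks at the annotated starts of all protein-coding genes the share was 94.7% (356 of 376), so the retention of start peaks was not particular to these genes. Conversely, 34 of the 37 siREXO4 peaks at the members were overlapped by a siRNaseH1 peak (91.9%, against 54.2% of the list), while 35 of the 80 siRNaseH1 peaks were overlapped by a siREXO4 peak (43.8%, against 32.7%).

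Strand and annotated start were listed for 25 of the 28 genes, and the peaks of these were sorted by where the summit lay. A start peak has its summit within 1 kb of the annotated start, and a peak beyond the end has it past the annotated end. In siCtrl cells 8 of 25 genes held a start peak (2.69% of protein-coding genes with a listed start), in siREXO4 18 (20.0%) and in siRNaseH1 16 (20.4%). Among genes of the members' length the backgrounds were 3.26%, 21.0% and 20.8%. A gained start peak was held by 10 genes in siREXO4 (17.4%, and 18.0% at the members' length) and 8 in siRNaseH1 (17.9% and 17.8%). At 8 genes the start was marked in all 3 lists (RPSA, RPS3, RPS12, RPS13, RPS14, RPS16, RPS19 and RPS23). At another 8 it was marked in both knockdown lists and not in siCtrl (RPS4X, RPS7, RPS10, RPS21, RPS24, RPS26, RPS27 and RPS28). RPS15 and RPS25 had a start peak in the siREXO4 list alone.

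The start peaks lay downstream of the start at nearly the same distance in most genes. The median distance from the annotated start to the summit was 223 bp for siCtrl peaks, 249 bp for siREXO4 peaks and 253 bp for siRNaseH1 peaks. Summits fell 150 to 450 bp after the start in 6 of 8, 14 of 18 and 14 of 16 start peaks, against 41.3%, 40.6% and 40.5% of the start peaks of all protein-coding genes. This window was not planned before the peaks were seen. Background medians of 180, 169 and 171 bp lie near its lower edge, so the contrast depends on its limits. Start peaks of large-subunit ribosomal protein genes fell in it at 87.5%, 62.5% and 69.6%. The exceptions upstream were the siREXO4 peaks of RPS15 and RPS25, with summits at -883 and -390 bp from the start. At the 16 genes with a start peak in both knockdown lists, the 2 summits were a median of 42 bp apart, and 14 of the 16 pairs lay within 100 bp. The largest distance was 174 bp, at RPS28. Distances between paired summits were not computed for other protein-coding genes, so these have no background.

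**Figure D2:**
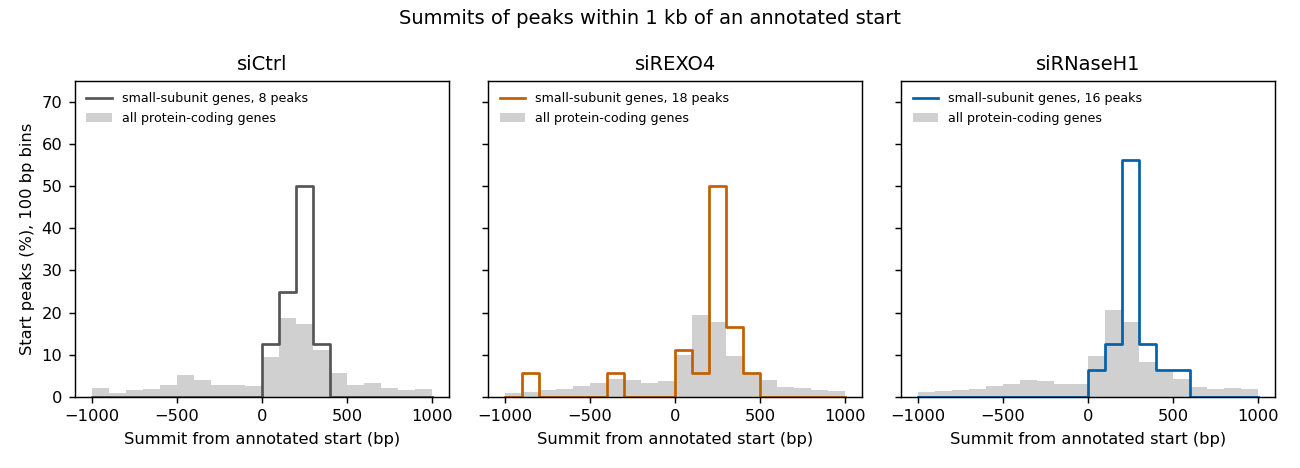
Percent of start peaks (y axis) by distance of the summit from the annotated start in 100 bp bins (x axis), 1 panel per list. Outlines are the small-subunit genes (8, 18 and 16 peaks) and grey bars all protein-coding genes, and the outlines are highest from 200 to 300 bp after the start.

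The annotated start regions of 6 genes with a peak over the start base in all 3 lists are shown, since the summits are measured from these positions. They run from 60 bases before the start to 20 bases from it, come from RefSeq (GRCh38.p14, the hg38 coordinates), and have in capitals the run of C or T that begins within 5 bases of the start.
RPS23, chr5:82278335-82278414, minus strand: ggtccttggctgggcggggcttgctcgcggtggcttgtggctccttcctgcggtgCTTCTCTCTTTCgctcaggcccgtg
RPS16, chr19:39435930-39436009, minus strand: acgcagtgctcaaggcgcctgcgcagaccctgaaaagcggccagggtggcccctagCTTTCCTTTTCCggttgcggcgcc
RPS19, chr19:41860195-41860274, plus strand: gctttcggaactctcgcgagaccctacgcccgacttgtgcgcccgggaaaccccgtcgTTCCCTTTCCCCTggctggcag
RPS12, chr6:132814509-132814588, plus strand: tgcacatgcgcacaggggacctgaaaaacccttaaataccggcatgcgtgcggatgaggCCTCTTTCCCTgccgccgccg
RPS14, chr5:150449720-150449799, minus strand: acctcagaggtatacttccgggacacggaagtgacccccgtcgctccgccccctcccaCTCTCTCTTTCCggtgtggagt
RPSA, chr3:39406660-39406739, plus strand: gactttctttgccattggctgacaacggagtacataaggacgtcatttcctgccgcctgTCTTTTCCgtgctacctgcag

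The tract is shared far beyond these 6 genes. A run of at least 6 pyrimidines beginning within 5 bases of the start was present in 21 of the 25 genes with a listed start, against 14.5% of 15813 protein-coding genes. It was shorter at RPS4X, RPS15, RPS27A and RPS29. Of these, RPS27A and RPS29 held no start peak, while RPS4X held one in both knockdown lists and RPS15 one in siREXO4. RPS3A, RPS6 and FAU, with runs of 7, 11 and 14 pyrimidines, held no start peak. RPS9 and RPS18, with runs of 10 and 11, held no peak at all. A relation between the run and start peaks was not tested. The ETS family core CCGGAAG, searched on both strands in the 300 bases around the start, was found in 9 of 25 members and 14.1% of protein-coding genes. GC content before the start was a median of 60.4% in the members and 62.0% in all protein-coding genes. Runs of GGGGG on either strand were found in 11 of the 25 members and in 65.0% of protein-coding genes.

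Proteins of the head of the subunit, the part that swivels during translocation, are given first, in the order of their symbols. Each fold enrichment below is the authors' value at the summit of a peak. Folds of different lists are not comparable, so positions shared between lists are given with the rank of the fold within its own list, as a percentile or beside the median or 90th percentile, and a fold without a rank describes a peak of a single list. RPS3 lines the mRNA entry channel. Its start peak had a fold of 3.27 in siCtrl (percentile 2.5), 11.3 in siREXO4 (percentile 92.7) and 15.05 in siRNaseH1 (percentile 96.4). A peak inside RPS3, with its summit 7799 bp from the start in siCtrl, was also present in all 3 lists. In siRNaseH1, 6 further peaks without a siCtrl peak lay inside the gene, the farthest 16022 bp from the start, and 1 of them, 12009 bp from the start, was also gained in siREXO4. The span annotated for RPS3 is 22785 bp.

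RPS10, a protein of the beak, had its strongest siRNaseH1 peak not at the start but 6929 bp from it. This peak, from 34418759 to 34420601 on chromosome 6, was 1843 bp wide with a fold of 29.99 (percentile 99.1). The same place held a peak of fold 5.31 in siCtrl (percentile 70.7) and of fold 5.78 in siREXO4 (percentile 68.4). At the start, a peak gained in both had a fold of 9.96 in siREXO4 (percentile 90.8) and 15.09 in siRNaseH1 (percentile 96.4). Another lay past the annotated end, with folds of 5.08 (percentile 55.4) and 6.17 (percentile 69.8). The readthrough gene RPS10-NUDT3 covers all of RPS10.

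RPS12 is a small protein of the beak and a host of snoRNA genes, which guide modification of ribosomal RNA. Its start peak had folds of 8.25 in siCtrl, 6.86 in siREXO4 and 21.49 in siRNaseH1, at percentiles 96.4, 80.5 and 98.1. The siRNaseH1 peak was 1201 bp wide and reached SNORD101, while the siREXO4 peak was 731 bp wide. A peak gained in both lay past the end, with its summit 1537 bp from it in siREXO4 (fold 4.78, percentile 45.7) and 1469 bp in siRNaseH1, where its fold of 9.41 was just above the 90th percentile. The remaining 2 siRNaseH1 peaks lay inside the gene and 606 bp past its end.

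RPS15, near the decoding site, had no siCtrl peak. A peak inside the gene was gained in both lists, with a fold of 5.11 in siREXO4 (percentile 56.4) and 3.78 in siRNaseH1 (percentile 11.5). RPS16, whose tail reaches the transfer RNA in the P site, was among the most enriched genes. Its start peak had a fold of 8.77 in siCtrl (percentile 96.9), 11.95 in siREXO4 (percentile 93.4) and 32.89 in siRNaseH1 (percentile 99.2), where it was 1484 bp wide. Beside it, siRNaseH1 held a peak inside the gene (6.65) and one 1810 bp past its end (6.4).

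RPS19, the gene most often mutated in Diamond-Blackfan anaemia, held 3 siCtrl, 4 siREXO4 and 8 siRNaseH1 peaks. Its start peak had folds of 4.09, 13.23 and 28.18, at percentiles 18.2, 94.5 and 99.0. All 3 siCtrl positions, at the start, inside the gene and past its end, were kept in both knockdown lists. A siREXO4 gained peak 1424 bp wide (fold 5.84, percentile 70.7), from 41865768 to 41867191 on chromosome 19, was overlapped by 2 siRNaseH1 gained peaks with folds of 12.78 (percentile 94.9) and 5.59 (above the list's median of 5.11). The other gained siRNaseH1 peaks of RPS19 lay between 3296 and 10998 bp from the start, with folds of 3.54 to 5.66.

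RPS20 and 2 genes of the subunit body, RPS2 and RPS15A, had no listed strand, so their peaks were not placed relative to the start. RPS20 had 1 peak in siCtrl (fold 3.71, percentile 7.2) and 1 overlapping it in siREXO4 (4.35, percentile 31.0). It had 4 peaks in siRNaseH1, the highest of which (8.92, percentile 88.6) overlapped both. RPS25, which certain viral internal ribosome entry sites require, had no siCtrl peak. Its single siREXO4 peak lay upstream of the start (4.86) and none of its 3 siRNaseH1 peaks (3.43, 4.96 and 4.96) overlapped it. The siREXO4 peak overlaps the neighbouring gene TRAPPC4, and the siRNaseH1 peaks of 4.96, past the end, overlap CENATAC. RPS25 and RPS27A were the genes whose only siREXO4 gained peak was not overlapped by a siRNaseH1 gained peak.

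RPS27A, which encodes ubiquitin fused to a ribosomal protein, held only 1 peak in all. This siREXO4 peak (4.15, percentile 23.6) lay 1943 bp past its annotated end, inside the neighbouring gene MTIF2. RPS28 had a start peak gained in both lists (5.76 and percentile 68.2 in siREXO4, 7.31 and percentile 81.6 in siRNaseH1), and 2 further siRNaseH1 peaks past its end that overlap the span of KANK3. The siREXO4 start peak of RPS28 also overlaps NDUFA7. RPS29 had a siCtrl peak of fold 8.47 (percentile 96.7), a siREXO4 peak of 15.64 (percentile 96.1) and a siRNaseH1 peak of 9.38, just under the 90th percentile of 9.39. The summits of these peaks, 49586760, 49586772 and 49586791 on chromosome 14, lie within RN7SL1 (49586580 to 49586878), the gene of the signal recognition particle RNA. They were 11919 to 11950 bp from the annotated start of RPS29, and hybrids of the RPS29 and RN7SL1 transcripts cannot be told apart there. In siRNaseH1, 3 further peaks (6.28, 5.14 and 8.93) lay farther into RPS29.

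The proteins of the body and platform carry the decoding face and the mRNA exit. RPSA, also known as the laminin receptor, had a start peak with a siCtrl fold of 9.34, a siREXO4 fold of 13.73 and a siRNaseH1 fold of 15.15. Its siCtrl and siRNaseH1 peaks were at percentiles 97.6 and 96.4, and its siREXO4 peak was above the 90th percentile. Neither siCtrl nor siREXO4 had another peak at RPSA, while siRNaseH1 added a peak inside RPSA (4.86) and 2 past its end (6.37 and 7.87). RPS2 lines the mRNA entry channel and hosts SNORA10 and SNORA64. It had a peak in all 3 lists over one end of its span, with folds of 6.89 in siCtrl (percentile 92.3), 14.82 in siREXO4 (percentile 95.6) and 20.47 in siRNaseH1 (percentile 98.0). The 3 further siRNaseH1 peaks of RPS2 had folds of 5.03 to 6.53. Those of 5.03 and 6.53 overlap the neighbouring gene NDUFB10, and the siRNaseH1 peak of 20.47 also overlaps SNHG9.

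RPS3A differed from the genes with a start peak. Its peak in all 3 lists lay inside the gene, 2153 to 2253 bp from the start, with folds of 4.9 in siCtrl (percentile 55.9), 3.32 in siREXO4 (percentile 4.5) and 12.07 in siRNaseH1 (percentile 94.2). The siCtrl peak overlapped SNORD73B in part, and the siRNaseH1 peak covered it. RPS4X, the X-linked gene with a copy on the Y chromosome, held no siCtrl peak and 1 start peak gained in both, with folds of 9.55 in siREXO4 (percentile 90.1) and 11.57 in siRNaseH1 (percentile 93.7). RPS6, the substrate of S6 kinase, had no start peak in any list. Its only peak, gained in both, had its summit 479 bp past the annotated end in siREXO4 (4.67, percentile 42.0) and 438 bp past it in siRNaseH1 (12.3, percentile 94.5), where it was 1210 bp wide.

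RPS7, which also binds the p53 regulator MDM2, held no siCtrl peak. A start peak was gained in both (8.28 and percentile 86.8 in siREXO4, 7.4 and percentile 82.1 in siRNaseH1), and a stronger siRNaseH1 peak of 14.04 lay inside the gene, 1898 bp from the start. RPS13, a protein of the platform, had a start peak in all 3 lists, with folds of 7.24, 12.69 and 14.07 at percentiles 94.0, 94.1 and 95.9, and siRNaseH1 peaks inside (9.0) and past its end (5.62). RPS14, the small-subunit gene lost in a myelodysplastic syndrome with a deletion of chromosome 5, had start peaks of 5.12, 12.64 and 16.07 at percentiles 61.2, 94.1 and 96.8. Their summits were 57, 30 and 79 bp after the start, closer than at the other genes marked in all 3 lists, and 2 siRNaseH1 peaks lay inside RPS14 (5.14 and 6.24). RPS15A held no siCtrl or siREXO4 peak and 2 siRNaseH1 peaks of 3.87 and 5.39.

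RPS21 had a start peak gained in both (9.35 and percentile 89.7 in siREXO4, 13.6 and percentile 95.6 in siRNaseH1) and no other peak. This peak also overlaps one end of RPS21-DT, a noncoding gene annotated upstream, and both summits lie outside that gene. RPS23, which contributes to decoding accuracy, had the highest fold of the members in the siCtrl list, 9.8 (percentile 97.9), and in the siRNaseH1 list, 34.8 (percentile 99.3). Its siREXO4 start peak had a fold of 14.5 (percentile 95.4). The siCtrl peak at RPS23 was 722 bp wide, the siREXO4 peak 1105 bp and the siRNaseH1 peak 1413 bp. The siREXO4 and siRNaseH1 start peaks of RPS23 also overlap the neighbouring gene ATP6AP1L.

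RPS24, another gene mutated in Diamond-Blackfan anaemia, had 2 peaks inside the gene in all 3 lists, the siRNaseH1 summits 7509 and 9340 bp from the start, and a start peak gained in both (6.46 and percentile 76.9 in siREXO4, 10.76 and percentile 92.7 in siRNaseH1). The nearer inside peak had folds of 5.83, 4.35 and 15.22 in the 3 lists, at percentiles 81.6, 31.0 and 96.5. The farther one had folds of 4.89, 5.3 and 7.3, at percentiles 55.6, 58.9 and 81.5. RPS26, at the mRNA exit, had a start peak gained in both (5.31 and percentile 59.3 in siREXO4, 8.71 and percentile 88.0 in siRNaseH1). RPS27 had no siCtrl peak and 2 positions gained in both. At its start the folds were 7.53 in siREXO4 (percentile 84.1) and 18.07 in siRNaseH1 (percentile 97.4), and past its end 7.65 (percentile 84.7) and 8.39 (percentile 86.7). All peaks past the end of RPS27 overlap the neighbouring gene NUP210L, and its siRNaseH1 start peak also overlaps RAB13. FAU, which encodes a ubiquitin-like protein fused to a ribosomal protein, had no start peak. Its shared peak lay past the annotated end, with the siCtrl summit (3.48, percentile 4.9) 1071 bp from it, the siREXO4 summit (5.09, percentile 56.1) 1170 bp and the siRNaseH1 summit (9.22, percentile 89.4) 1157 bp. The siRNaseH1 peak was 1670 bp wide.

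RPS9, at the mRNA entry, and RPS18, a head protein that contacts the large subunit, held no peak in any list, as did 53.3% of protein-coding genes and 61.0% of those of the members' length. The 500 kb on either side of RPS18 held 18 siRNaseH1 peaks, and those of RPS9 held 9, within the range of 5 to 56 over the 28 genes. RPS18 lies in the major histocompatibility region of chromosome 6 and RPS9 in the leukocyte receptor region of chromosome 19, for which hg38 has alternate contigs. The deposited lists hold peaks on those contigs (143 siRNaseH1 peaks on alternate contigs of chromosome 6 and 38 on those of chromosome 19). Their part in the absence of peaks at these genes was not tested.

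**Figure D3:**
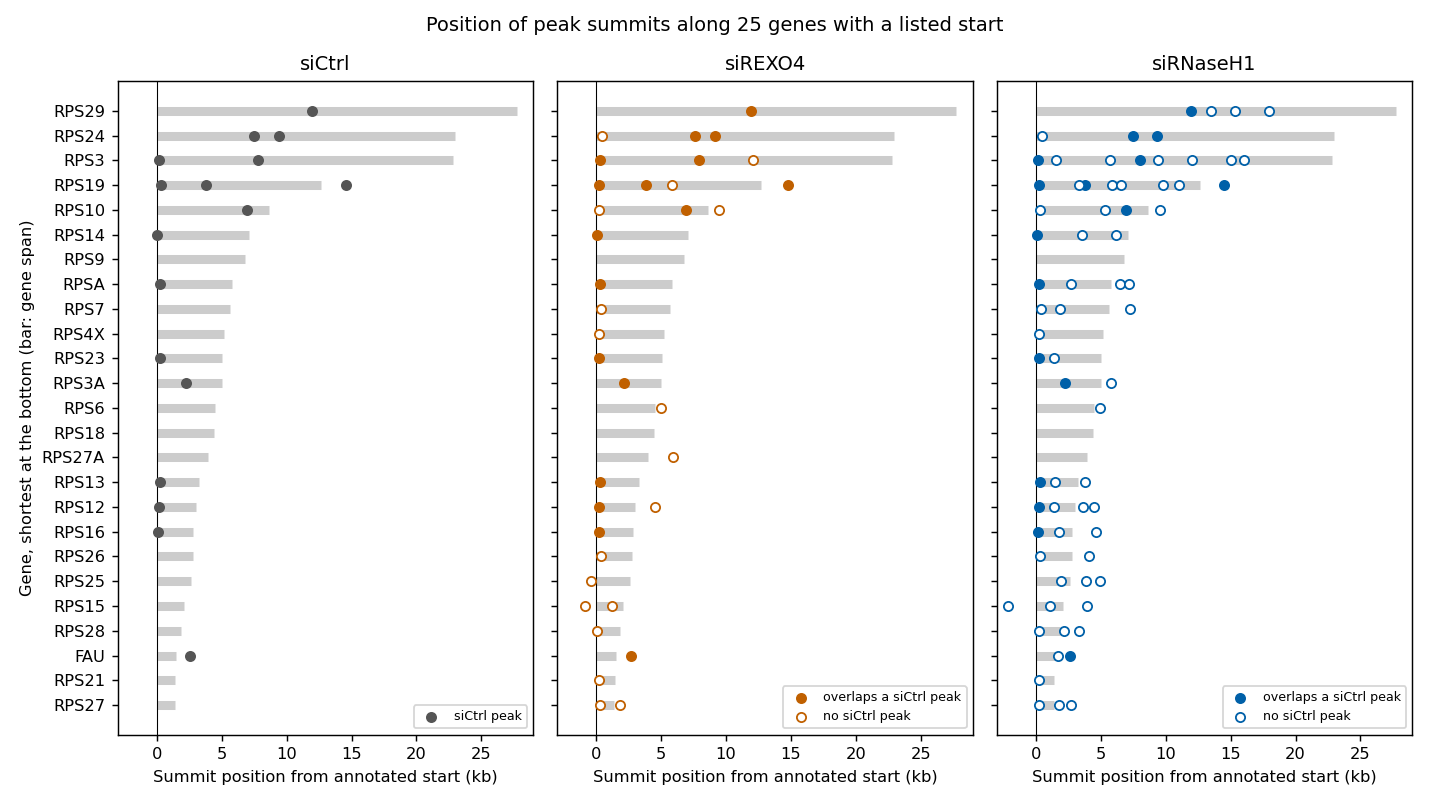
Position of each peak summit in kb from the annotated start (x axis) for the 25 genes with a listed start (y axis, grey bars are gene spans), 1 panel per list. Filled points overlap a siCtrl peak and open points do not; open points are more frequent inside and past the genes in siRNaseH1 than in siREXO4.

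By place, the 2 knockdown lists held similar numbers of start peaks at the members, and siRNaseH1 held more downstream. Start peaks numbered 18 in siREXO4 and 16 in siRNaseH1, of which 10 and 8 were gained. Peaks inside the genes numbered 10 and 32, of which 3 and 25 were gained. Peaks beyond the end numbered 7 and 21, of which 5 and 19 were gained. All protein-coding genes with a listed start had the same order, with 3302 and 3403 start peaks, 4644 and 11019 inside and 865 and 1658 beyond the end, so this order is not particular to the members. Of the 15 siREXO4 peaks gained in both, 8 were at starts, 3 inside and 4 beyond the end. No test of this difference in place was possible with 1 list per transfection.

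A peak beyond the annotated end was found at 15 of 25 genes in siRNaseH1 (9.28% of protein-coding genes), 7 in siREXO4 (5.04%) and 2 in siCtrl (1.38%). Among genes of the members' length the backgrounds were 10.9%, 6.0% and 1.69%. In siRNaseH1 the summits lay a median of 1236 bp past the end, from 188 bp at FAU to 2287 bp at RPS25, where the peak overlaps CENATAC. The highest folds were 12.3 at RPS6, 9.41 at RPS12 and 9.22 at FAU. Without peaks that overlap another protein-coding gene the counts were 11, 4 and 2, and in lists of equal length 8, 2 and 2. Both limits were chosen after the data had been seen, and shares of protein-coding genes under them were not computed.

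Within each list the median fold of the members' start peaks was above that of all start peaks. In siRNaseH1 the 16 start peaks had a median fold of 15.07 (percentile 96.4), against 6.66 for the start peaks of all protein-coding genes. Peaks inside the genes had a median of 6.09 and those beyond the end 5.62. In siREXO4 the medians were 9.45, 5.2 and 4.78, against 6.48 for all start peaks, and in siCtrl the start peaks had 7.74, against 5.41, and the inside peaks 4.9. At or above the 90th percentile of its list were 13 of 16 siRNaseH1 start peaks, 9 of 18 in siREXO4 and 5 of 8 in siCtrl. Of the start peaks of all protein-coding genes, 31.6%, 27% and 29.1% were. Of those of large-subunit ribosomal protein genes, 56.5%, 33.3% and 37.5% were. Their median folds of 9.6, 6.74 and 6.4 in the same order were also above those of all start peaks. Among the 14 genes with a siRNaseH1 start peak and a further peak, the start peak had the higher fold at 11. The exceptions were RPS7, RPS10 and RPS24. In siREXO4 this held at 5 of 7 genes, and in siCtrl at 0 of 2. There the start peaks of RPS3 (3.27) and RPS19 (4.09) were below a peak inside the gene (4.87 and 4.67). This ranking, and the median folds inside and beyond the end, were not computed over all protein-coding genes and have no background.

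**Figure D4:**
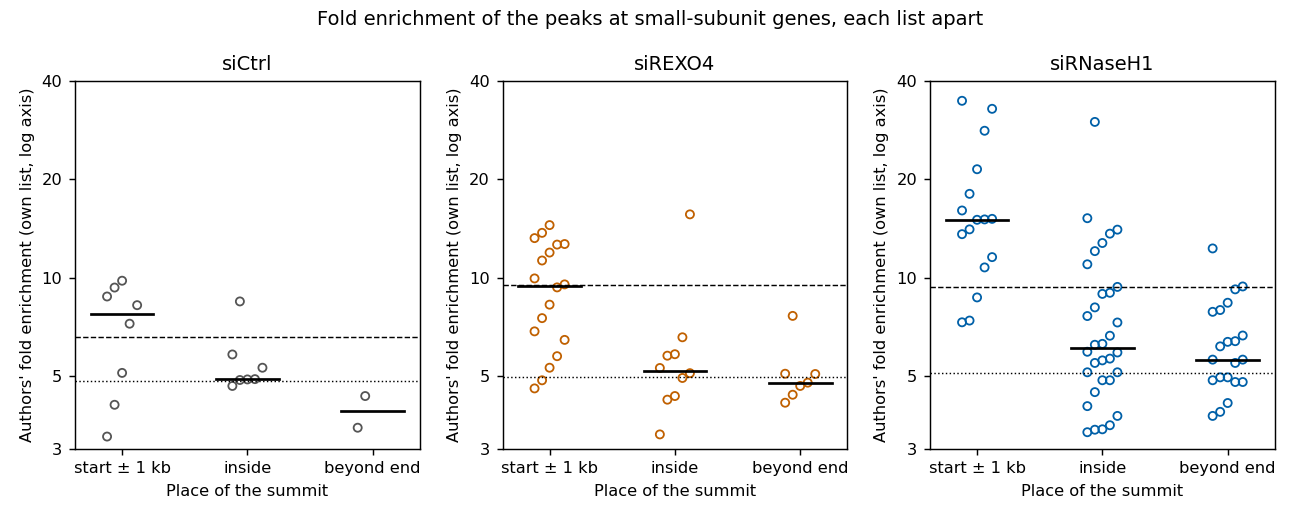
The authors' fold enrichment of each peak at the members (y axis, log scale) by place of the summit (x axis), each list in its own panel, with the median as a bar. The dotted and dashed lines are the median and 90th percentile of the whole list (5.11 and 9.39 in siRNaseH1), and 13 of the 16 siRNaseH1 start peaks lie at or above the dashed line.

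The 8 genes marked at the start in all 3 lists also had the higher median fold among the members' start peaks in each knockdown list. The same split was not made over other protein-coding genes, so this contrast has no background and is not shown to be particular to the members. In siREXO4 their median was 12.66, against 7.0 for the 10 start peaks without a siCtrl peak. The ranges overlapped (6.86 to 14.5 and 4.59 to 9.96), with RPS12 at 6.86. In siRNaseH1 it was 18.78 against 11.16, and the ranges overlapped (14.07 to 34.8 and 7.31 to 18.07). The start peak was narrowest in siCtrl at all 8 genes and widest in siRNaseH1 at 6, RPSA and RPS13 being widest in siREXO4. Median widths of these start peaks were 561 bp (siCtrl), 942.5 bp (siREXO4) and 1130 bp (siRNaseH1). Over all start peaks of the members, selected or not, the medians were 561, 689.5 and 943.5 bp. Start peaks of all protein-coding genes had medians of 427, 635 and 673 bp. Those of large-subunit ribosomal protein genes had 457.5, 815.5 and 916 bp, wider than the members' in siREXO4.

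Of the 28 genes, 7 hold annotated snoRNA genes, 14 in all (RPSA, RPS2, RPS3, RPS3A, RPS12, RPS13 and RPS20). All 7 held a peak in all 3 lists, against 8 of the other 21 genes in siCtrl and 18 of 21 in each knockdown list. Shares for snoRNA host genes outside the members were not computed, so these counts have no background, and a relation to the snoRNA genes was not tested. Few of the snoRNA genes themselves were overlapped, with 1 of 14 by a siCtrl peak, 0 by a siREXO4 peak and 3 by a siRNaseH1 peak. By place in the subunit, 7 of 12 genes of head proteins and 8 of 16 of body proteins held a siCtrl peak, and 6 and 7 a peak gained in both.

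Ribosomal protein genes have many processed copies in the genome. Of 655 annotated pseudogenes named after a member, 1 was overlapped by a siCtrl peak, 3 by a siREXO4 peak and 4 by a siRNaseH1 peak (0.611%, against 1.77% of all pseudogenes). RPSAP52 was overlapped in all 3 lists by a peak that also overlaps HMGA2. How reads with several matching places were treated is not given in the sources used here.

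Set beside related genes, the small-subunit genes resembled the large-subunit genes, of which 23 of 47 held a siCtrl peak, 37 a siREXO4 peak and 46 a siRNaseH1 peak. The 95% Wilson intervals of the 2 families overlapped in each list (35.8 to 70.5% and 35.3 to 62.8% in siCtrl). Genes of mitochondrial small-subunit proteins held a siCtrl peak at 3 of 28 (10.7%, 3.71 to 27.2%), and factors that assemble the small subunit at 8 of 52 (15.4%, 8.01 to 27.5%). These intervals lay below that of the members. For siRNaseH1 peaks the assembly factors reached 43 of 52 (82.7%, 70.3 to 90.6%), and that share lies within the members' interval of 72.8 to 96.3%. At the annotated start, siRNaseH1 peaks were found at 15 of 46 assembly factor genes (32.6%) and 16 of 25 members (64.0%). Their intervals overlapped slightly (20.9 to 47.0% and 44.5 to 79.8%). Large-subunit genes held a start peak at 22 of 38 in siRNaseH1 (57.9%, 42.2 to 72.1%). In siREXO4 it was 22 of 38, against 18 of 25 members. A siRNaseH1 peak beyond the end was held by 24 of 38 large-subunit genes and 15 of 25 members. For 3 or more siRNaseH1 peaks the counts were 25 of 47 and 17 of 28. The intervals of the 2 families overlapped in each of these comparisons, so these traits were not particular to the small-subunit genes.

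**Figure D5:**
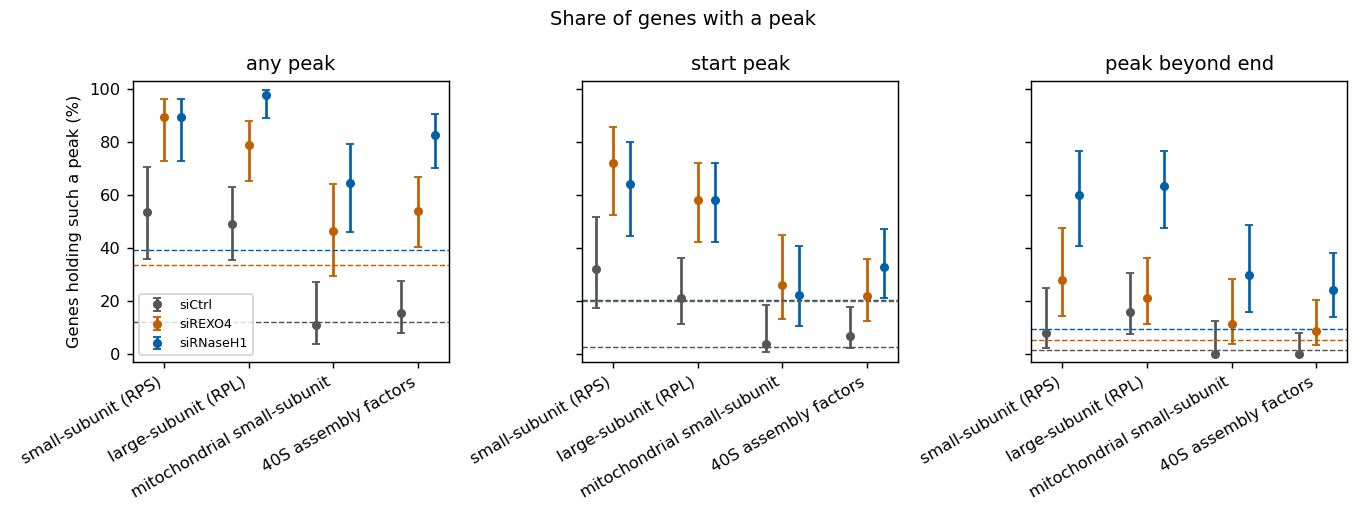
Percent of genes (y axis) that hold any peak, a start peak or a peak beyond the end (panels), for 4 groups of genes (x axis), with 95% Wilson intervals that cover counting error only. Dashed lines are all protein-coding genes (12.0%, 33.7% and 39.2% for any peak), and the small-subunit genes lie above them in each list.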

How the data were processed

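The submitters' processing notes name the build hg38 and, without roles or options, MACS2 (2.1.0.20150731), HISAT2 (2.2.1), Trim Galore (0.6.10), deepTools (3.5.1), SAMtools (1.17) and Cufflinks. Per the labels and file names, the authors merged 3 IP libraries per transfection. The calls' control library, the handling of duplicates and the depth were not given in the sources used here. Fold enrichment (a ratio), −log10 p, −log10 q and score are the authors' deposited values per peak. The lowest −log10 q was 1.32 to 1.37.

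Peaks on chromosomes 1 to 22 and X were joined to RefSeq genes and starts (GRCh38.p14) by 1 bp overlap. RPS2, RPS15A and RPS20 had no start entry. Where several starts were listed, the outermost was used. Members, lists and the naming rule were chosen with earlier results of these data known, and the classes by place after seeing the peaks. The rule names every member that has a peak gained in both, a peak in all 3 lists, none, or a top fold. Wilson intervals cover counting error only. No test was made, since each group is 1 merged list. Python 3.11.15, pandas 2.3.3, NumPy 2.4.6, SciPy 1.17.1 and Matplotlib 3.10.9 were used. The overlap code was tested on simulated data.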

Additional observations from a re-analysis of the deposited data

Results flagged for a closer look

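Peaks on alternate contigs were outside the counts above and were a larger share of the knockdown lists than of the siCtrl list. For chromosome 6 there were 112 siREXO4 peaks (0.851% of the list) and 143 siRNaseH1 peaks (0.663%), against 14 siCtrl peaks (0.303%). For chromosome 19 there were 18 siREXO4 peaks (0.137%) and 38 siRNaseH1 peaks (0.176%), against 1 siCtrl peak (0.0216%). The difference was not tested, and positions of RPS18 and RPS9 on these contigs were not used here.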

How the results depend on the processing

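Of 61 alternative counts of members, 58 were within 1.5 times the count given above. In lists of equal length (4458 peaks) the genes with a siREXO4 gained peak fell from 15 to 9. Without genes holding a siCtrl peak in the window, those with a siRNaseH1 gained peak went from 25 to 10 and those with a peak gained in both from 13 to 8. That setting leaves out 15 of the 28 members beforehand, so a fall from 25 was fixed by the setting. The alternatives were flanks of 0, 1 and 5 kb, stricter overlap, q or fold, equal list length, neighbouring genes left out and other definitions of gain. Shares of all protein-coding genes under these alternatives were not computed. Counts of start and beyond-end peaks were varied by settings chosen after seeing the data, and those of start peaks stayed within 1.5 times. No paired analysis was possible because the replicates were merged into 1 list per transfection, and for the same reason no replicate could be left out. Depth is unknown, so a missing peak does not show that hybrids were absent.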
